A study of Sus scrofa with 6 samples.

Results

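The genes of the tight, adherens, desmosomal and gap junctions were examined in IPEC-1 cells, an epithelial line from the small intestine of newborn piglets. Genes were taken by their symbol in the annotation of the array, namely the claudins (CLDN), zonula occludens proteins (TJP), cadherins (CDH), desmosomal cadherins (DSC and DSG), connexins (GJA and GJB), catenins (CTNN), plakophilins (PKP) and MARVELD genes, together with OCLN, F11R, DSP, JUP, EPCAM, CGN, PARD3 and PARD6B. In this way 37 of 6765 genes were found, and where a gene had several probe sets, the one with the highest mean signal stood for it. Together they had 57 of the 23999 probe sets.

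The cells were grown on membrane inserts, at first with FBS, which was reduced stepwise, and then for some weeks in FBS-free medium. They were kept either as air-liquid interface culture (ALI), in which the apical side carries a thin film of liquid, or as submerged membrane culture (SMC), in which a column of medium stands above the cells. Each culture type had 3 arrays, 1 each from passages P109, P111 and P113 of this 1 cell line. No gene was altered in either group. The spread between arrays is therefore that between passages of a single line, and the comparison asks whether junction genes differ in transcript signal between the culture types. All values are log2 signals of GeneChip Porcine Genome Arrays, and a difference of 1 on this scale is a doubling.

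Epithelial cells are joined by several kinds of contact. At the tight junction, claudins and occludin seal the gap between neighbours and are tied to the actin belt by zonula occludens proteins. Below it, E-cadherin holds the adherens junction through catenins, desmosomes anchor keratin filaments through desmoplakin and plakoglobin, and connexins form channels from cell to cell.

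The RefSeq annotation of the pig assembly Sscrofa11.1 holds 103 symbols that fit the rule, and all 37 measured genes matched one by gene identifier. The other 66 were not analysed here, as no probe set carried their symbol as its only one. They include every desmocollin and desmoglein, the alpha-catenins, CLDN1 and CLDN2, F11R, CGN, MARVELD2, PARD3 and PARD6B. The desmosome was thus covered by the plaque genes DSP, JUP and PKP4 alone. Some symbols fit by their letters but stand for proteins that are not core parts of a junction, such as CLDND1, CTNNBL1 (a splicing factor), CTNNBIP1 (an inhibitor of beta-catenin) and MARVELD1.

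The arrays had nearly the same distribution, with medians between 6.33 and 6.38. No detection calls were used, so it is open to doubt whether a signal in the lowest 25% of an array (under 4.51 to 4.61) exceeds background. Of the junction genes, 26 had a mean above the lowest 25% and 11 lay in it. The epithelial markers (9 of 12 measured, among them EPCAM, CDH1, KRT8 and KRT18) had a mean log2 signal of 11.02 to 11.23 per array in ALI and 11.12 to 11.35 in SMC. Not all of them were bright. The dimmest, VIL1 (villin), lay near the median of all signals, with 5.69 to 6.37 in ALI and 6.43 to 6.75 in SMC. It was lower in ALI in each passage, without overlap, but was not called (log2 fold change -0.45, limma adjusted p = 0.332). The log2 fold change was negative for 7 of the 9 epithelial markers and positive for 2. The markers of fibroblasts and smooth muscle (11 of 14 measured) had 5.66 to 5.80 in ALI and 5.67 to 5.80 in SMC. Of these, 4 had a mean above the median of all signals, among them TAGLN (10.15), PDGFRB (7.80) and COL1A2 (7.44). The markers of immune cells (4 of 7 measured) had 4.83 to 4.90 in ALI and 4.83 to 4.89 in SMC. Those of endothelium (8 of 9 measured, of which CDH5 and CLDN5 are themselves junction genes) had 4.99 to 5.26 and 4.97 to 5.19, and those of neural and glial cells (4 of 5 measured) 4.98 to 5.17 and 4.95 to 5.06. One marker of these lists was called, PECAM1, an adhesion molecule of endothelium and leukocytes, with a log2 fold change of -0.50 (SE 0.10, limma adjusted p = 0.0448, 0.0302 with passage as a block). It had 7.21, 7.07 and 7.13 in ALI and 7.65, 7.59 and 7.68 in SMC. The second PECAM1 probe set gave -0.37 (limma adjusted p = 0.145). The call without the block was lost on leaving out any 1 array (0.0792 to 0.149), and the part of other cells in the results was not tested. In such bulk samples fewer cells of a type and less RNA per cell cannot be told apart.

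Most junction genes, like most of all genes, differed little in signal between the culture types. At an adjusted p under 0.05 (limma, Benjamini-Hochberg over all probe sets), 0 of 37 were called, against 2.53% of all genes. Under such a share, 0 of 37 is no result about the junction genes. At an unadjusted p under 0.05 there were 4 of 37 (GJA1, CLDN12, CTNNB1 and CDHR4), against 16% of all genes. The methods' t-test gave 2 before adjustment (CLDN12 and CTNNB1), against 14.2% of all genes. After adjustment that test called 0 junction genes and 0 of all genes. With the passage as a block, GJA1 alone was called, higher in ALI, against 2.25% of all genes called in that direction. With the same block, 0 junction genes were called lower, against 3.75% of all genes.

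The fold changes were small. On the log2 scale the difference (ALI minus SMC) had a median of 0.02 over the 37 genes and 0.01 over all genes, and its absolute value a median of 0.113 and 0.129. It was positive for 21 genes and negative for 16. Over the 26 genes above the lowest 25% of signals the median was 0.01, with a range of -0.50 to 0.30. A change of at least 1.5-fold was found for 1 of 37 genes, GJA1, and for 5.04% of all genes.

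A gene that is not called may still differ, so the width of the interval matters. For 31 of 37 junction genes the whole 95% confidence interval lay within 1.5-fold in either direction, as it did for 76.1% of all genes. The exceptions were OCLN, CLDN12, CLDN7, CDH6, CDHR4 and GJA1. Of the 11 junction genes in the lowest 25% of signals, all but GJA1 were among the 31. A narrow interval near background does not show that such a gene is unchanged. The interval counted is that of the brightest probe set. Dimmer probe sets of some of the 31 reached beyond 1.5-fold, as that of CDH1 did (-1.12 to -0.44). The standard error of the log2 fold change ran from 0.09 to 0.25, with a median of 0.129.

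**Figure D1:**
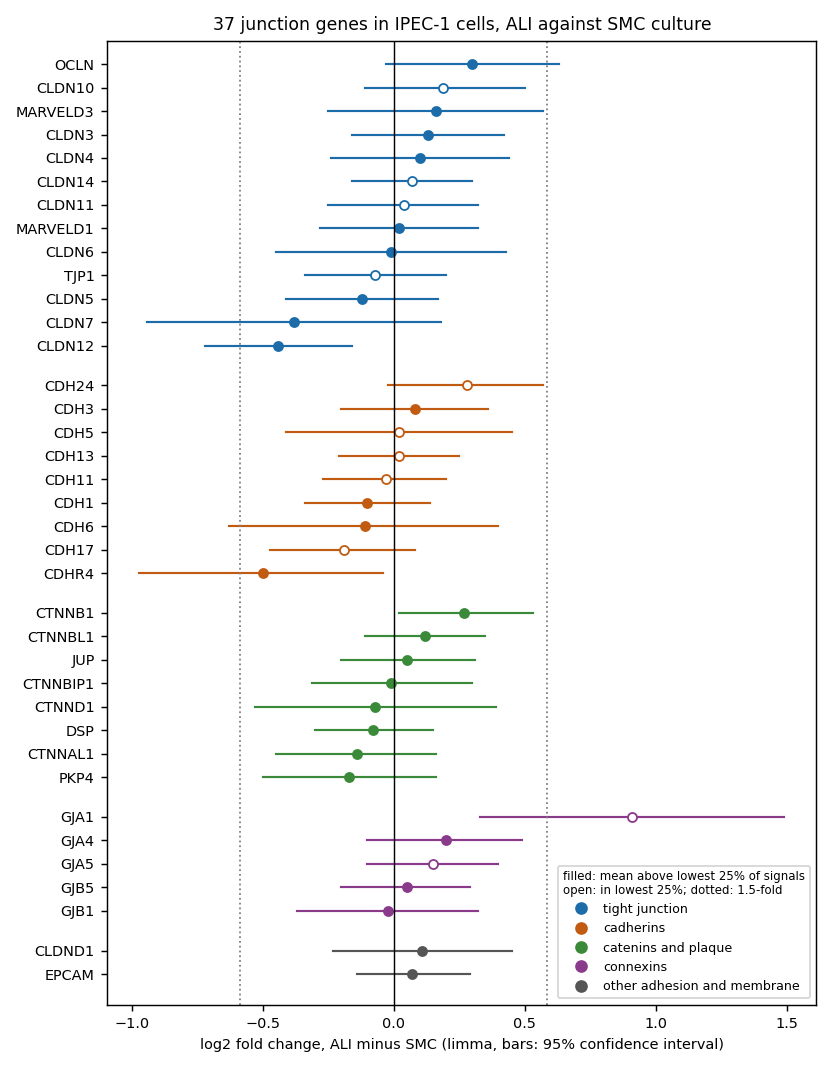
The log2 fold change (ALI minus SMC) of each of the 37 junction genes is plotted as a point with its 95% confidence interval from limma, by family, with 3 arrays per culture type. Dotted lines mark 1.5-fold, and open points are genes with a mean in the lowest 25% of signals. GJA1, at 0.91, is the point beyond the dotted lines.

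The arrays of the groups overlapped for most junction genes. For 5 of 37 genes (GJA1, CLDN12, CTNNB1, CDH17 and CDH24) the ALI and SMC values did not overlap, against 21.9% of all genes. The difference between ALI and SMC had the same sign in all 3 passages for 15 of 37 genes, against 44.2% of all genes. As shares of the junction genes these are 13.5% and 40.5%, and neither difference from all genes was tested.

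Occludin (OCLN), a membrane protein of the tight junction strand, had log2 signals of 12.33, 12.23 and 12.07 in ALI at passages P109, P111 and P113. In SMC they were 12.14, 11.94 and 11.64. ALI was the higher of the pair in each passage, but the groups overlapped, as the signal fell with passage number in both. The ALI minus SMC difference was 0.30 (SE 0.15, 95% confidence interval -0.03 to 0.63, limma adjusted p = 0.398, 0.17 with the passage block). The other OCLN probe sets gave 0.08 and -0.14.

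The claudins, which set the permeability of the tight junction to ions, were measured by 9 genes, of which 5 had a positive and 4 a negative log2 fold change. CLDN12 had the smallest p of them. Its signal was 5.87 to 6.09 in ALI and 6.28 to 6.59 in SMC, without overlap, and lower in ALI in all 3 passages. Its log2 difference was -0.44 (SE 0.12, 95% confidence interval -0.72 to -0.16), and the limma adjusted p of 0.14, or 0.0837 with the block, missed the threshold.

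CLDN7, a claudin that is common in intestinal epithelium, differed by -0.38 with a wide interval (-0.94 to 0.18, limma adjusted p = 0.532). Its values were 10.75, 9.81 and 10.65 in ALI and 11.01, 10.77 and 10.57 in SMC. ALI at passage P111 lay apart from the rest, and the other ALI arrays were within the SMC range. Without that array the log2 fold change was -0.09. CLDN4, a claudin of tight epithelia, differed by 0.10 (-0.24 to 0.44). CLDN3 differed by 0.13 on its brighter probe set and by -0.24 on the other.

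Log2 fold changes of the 7 claudins other than CLDN12 and CLDN7 ran from -0.12 to 0.19, with limma adjusted p of 0.569 to 0.988. CLDN10, CLDN11 and CLDN14 were in the lowest 25% of signals. CLDN5, best known from endothelium, differed by -0.12, and CLDN6, a claudin of early epithelia, by -0.01.

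TJP1 encodes ZO-1, the scaffold that links claudins and occludin to actin. It had 4.19, 4.0 and 4.02 in ALI and 4.0, 4.29 and 4.13 in SMC, all in the lowest 25%, so its probe set may not measure above background. The groups overlapped, and the log2 fold change was -0.07 (SE 0.12, 95% confidence interval -0.34 to 0.20, limma adjusted p = 0.839). MARVELD3, a relative of occludin, differed by 0.16 and 0.17 on its probe sets, and MARVELD1 by 0.02.

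E-cadherin (CDH1), the cadherin of epithelial adherens junctions, had 12.77, 12.72 and 12.82 in ALI and 12.97, 12.90 and 12.73 in SMC on its brighter probe set. The groups overlapped, and ALI was lower at passages P109 and P111 and higher at P113. The log2 fold change was -0.10 (SE 0.11, 95% confidence interval -0.34 to 0.14, limma adjusted p = 0.733).

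The dimmer CDH1 probe set gave another picture. It had 5.98, 6.16 and 5.80 in ALI and 6.71, 7.0 and 6.56 in SMC, with every ALI value below every SMC value. The ALI minus SMC difference was -0.78 (SE 0.15, 95% confidence interval -1.12 to -0.44, limma adjusted p = 0.0412, 0.0052 with the block). It was the single called one of the 57 probe sets of junction genes, or 1.75%, against 1.9% of all probe sets. The call was lost on leaving out any 1 array other than SMC at passage P113, with limma adjusted p of 0.0561 to 0.157. The intervals of the probe sets do not overlap, and which of them follows the CDH1 transcript was not tested.

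The other cadherins showed no call. CDH17, the liver-intestine cadherin, was in the lowest 25% of signals and differed by -0.19 (-0.47 to 0.08, limma adjusted p = 0.513), and CDH24, also there, by 0.28 (-0.02 to 0.57, 0.378). The groups did not overlap for either. CDH3, the P-cadherin, which lies next to CDH1 in the annotation, differed by 0.08. CDH6, the kidney cadherin, differed by -0.11 with an interval of -0.63 to 0.40. CDH5 (the cadherin of endothelium), CDH11 (of mesenchyme) and CDH13 (a cadherin without a cytoplasmic domain) were in the lowest 25% in both groups, and differed by 0.02, -0.03 and 0.02. The most negative value of the family was that of CDHR4, a cadherin-related gene, at -0.50 (-0.97 to -0.04, limma adjusted p = 0.307), whereas its second probe set gave 0.09.

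Beta-catenin (CTNNB1), which binds the tail of E-cadherin and also acts in Wnt signaling, had 13.32, 13.36 and 13.10 in ALI. In SMC it had 13.06, 12.94 and 12.95. Every ALI value was above every SMC value. Its log2 difference was 0.27 (SE 0.11, 95% confidence interval 0.02 to 0.53), with a limma adjusted p of 0.312. The other 4 CTNNB1 probe sets, from brighter to dimmer, gave -0.14, -0.03, 0.25 and -0.47, the last with an interval that does not overlap that of the brightest (-0.80 to -0.14, limma adjusted p = 0.176). The sign of CTNNB1 thus depended on the probe set.

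Of the desmosomal plaque, desmoplakin (DSP), which ties the desmosome to keratin filaments, had 10.86, 10.77 and 10.92 in ALI and 10.90, 10.93 and 10.96 in SMC. The groups overlapped, and ALI was lower in each passage by a small margin. The log2 fold change was -0.08 (SE 0.10, 95% confidence interval -0.30 to 0.15, limma adjusted p = 0.777), and the second DSP probe set gave -0.31 with an adjusted p of 0.358. That second probe set had a mean of 4.50, in the lowest 25% of signals, and may not measure above background.

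Plakoglobin (JUP), shared by desmosomes and adherens junctions, had 6.72, 6.72 and 6.94 in ALI and 6.83, 6.74 and 6.64 in SMC. The groups overlapped, with a log2 fold change of 0.05 (SE 0.11, 95% confidence interval -0.20 to 0.31, limma adjusted p = 0.875). PKP4, a relative of the plakophilins, differed by -0.17, and p120-catenin (CTNND1), which stabilizes cadherins at the membrane, by -0.07. CTNNAL1, CTNNBL1 and CTNNBIP1 differed by -0.14, 0.12 and -0.01.

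EPCAM, an adhesion protein of epithelial cells that binds claudins, was nearly level between the culture types. It had 13.44, 13.34 and 13.40 in ALI and 13.35, 13.30 and 13.31 in SMC. The ALI minus SMC difference was 0.07 (SE 0.09, 95% confidence interval -0.14 to 0.29, limma adjusted p = 0.773).

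Connexin 43 (GJA1), a channel protein of many cell types, had the largest difference of the 37 genes. Its log2 signals were 3.13, 3.43 and 4.26 in ALI and 2.66, 2.62 and 2.80 in SMC. ALI was higher in each passage, by 0.47, 0.81 and 1.46 at passages P109, P111 and P113. Its log2 difference was 0.91 (SE 0.25, 95% confidence interval 0.33 to 1.49, limma adjusted p = 0.14). With the passage block the adjusted p was 0.0247.

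All these GJA1 values lie in the lowest 25% of signals. In SMC the probe set was close to the lowest value of each array (2.5 to 2.60), with at most 0.25% of probe sets below it. In ALI 2.87%, 7.13% and 20.71% of probe sets were below it. Its fold has no exact size, since neither group was shown to exceed background. Without ALI at passage P113 the log2 fold change was 0.59, over 1.5 times smaller.

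The remaining connexins were not called. GJA4 and GJA5, both known from vessels, differed by 0.20 and 0.15, and GJB1 and GJB5, connexins of epithelia, by -0.02 and 0.05. The limma adjusted p of these genes lay between 0.548 and 0.965, and GJA5 was in the lowest 25% of signals.

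**Figure D2:**
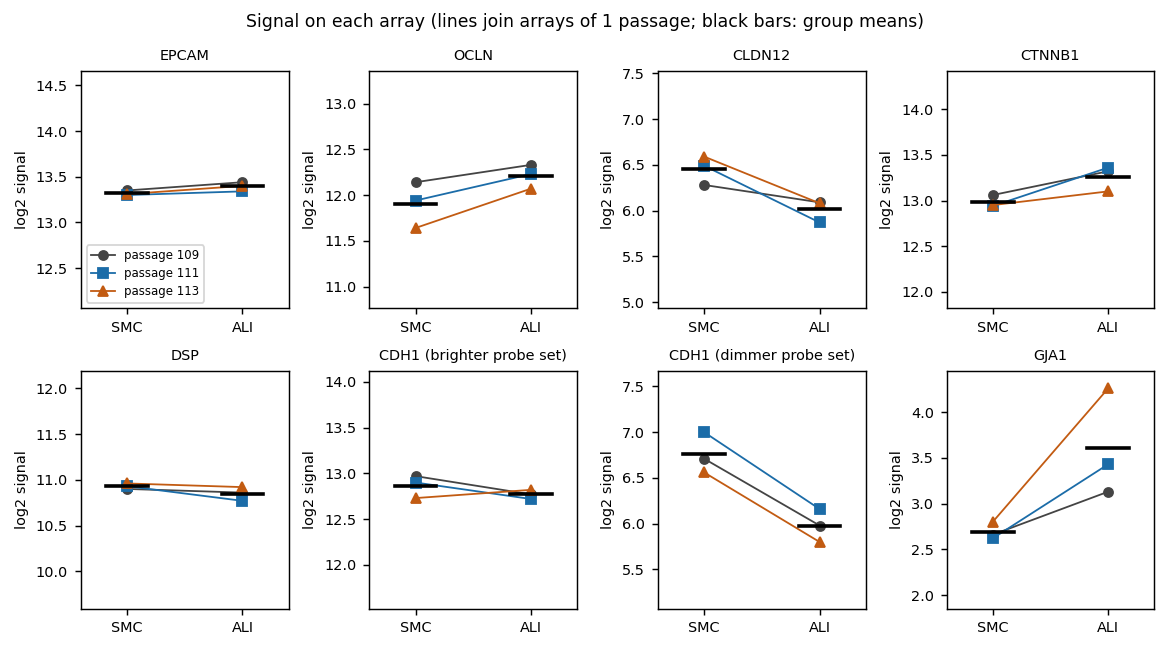
Log2 signal on each array is shown for EPCAM, OCLN, CLDN12, CTNNB1, DSP, both probe sets of CDH1 and GJA1, in SMC and ALI. Lines join the arrays of 1 passage, black bars are group means (n = 3), and each panel spans the same range of log2 units. The dimmer CDH1 probe set is lower in ALI in each passage while the brighter one is nearly level, and GJA1 spreads from 3.13 to 4.26 in ALI.

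How far probe sets of 1 gene differ was examined over the 13 junction genes with more than 1 probe set (33 probe sets). For 7 of them the log2 fold changes had different signs. The gap between the lowest and the highest ran from 0.01 for MARVELD3 to 0.74 for CTNNB1. In CDH1 and CTNNB1 the 95% intervals of some probe sets did not overlap. CLDND1 had 0.11, -0.51 and 0.07, none of them called.

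**Figure D3:**
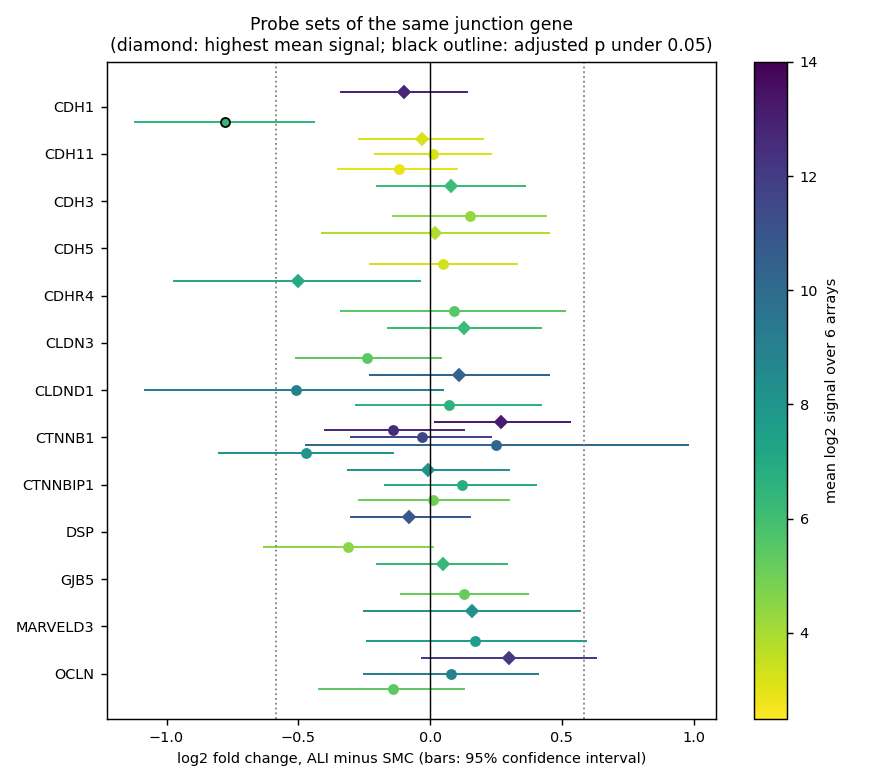
The log2 fold change with its 95% confidence interval is plotted for each probe set of the 13 junction genes with more than 1, coloured by mean log2 signal, with the probe set of highest mean as a diamond. The dimmer CDH1 probe set, at -0.78, is the one with an adjusted p under 0.05.

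The passages were compared as well, using the fit with culture type and passage. Between passage P113 and P109, each with 1 ALI and 1 SMC array, 0 of 37 junction genes were called at a limma adjusted p under 0.05, against 0.207% of all genes. At an unadjusted p under 0.05 there were 6, or 16.2%, against 16.1% of all genes. Of these, 5 were lower at passage P113, against 7.01% of all genes. CTNND1 was lower by 0.56 in ALI and by 0.58 in SMC, and the fitted log2 difference was -0.57 (95% confidence interval -0.90 to -0.24, limma adjusted p = 0.126). At passage P113 the CTNND1 signals, 4.28 in ALI and 4.23 in SMC, were in the lowest 25% of their arrays. They may not exceed background. CDH6 differed by -0.50 (limma adjusted p = 0.144), OCLN by -0.38, CLDND1 by -0.37 and CLDN6 by -0.43. GJA1 differed by 0.63, from 1.12 in ALI and 0.13 in SMC. In 19 of 37 genes the signal was lower at passage P113 in both cultures, against 30.7% of all genes, and in 6 it was higher in both, against 33.9%. These counts rest on 1 array per culture and passage, and the differences from all genes were not tested. For OCLN, CTNND1, CDH6, CLDND1, CLDN6 and further junction genes the fitted passage difference was larger in size than that between the culture types. This was not tested.

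The genes that work beside the junction proteins were described in 5 lists. Of the perijunctional actin list (24 of 33 genes measured), 0 were called higher, against 1.02% of all genes, and 2 lower, RDX and MSN, against 1.51% of all genes. The median log2 fold change was -0.01. Radixin (RDX), which links membrane proteins to actin, had 7.63, 7.68 and 7.99 in ALI and 8.55, 8.58 and 8.65 in SMC. Moesin (MSN), of the same family, had 7.49, 7.55 and 7.17 in ALI and 8.39, 8.40 and 7.94 in SMC. In both genes every ALI value was below every SMC value.

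RDX fell by 0.83 on the log2 scale (SE 0.12, limma adjusted p = 0.0169), and its second probe set gave -1.04 (0.0499). MSN fell by 0.84 (SE 0.16, limma adjusted p = 0.0436), and its second probe set gave -0.46 (0.235, and 0.0406 with the passage block). Leaving out 1 array raised the adjusted p of RDX above the threshold for ALI at passages P109 and P111 (0.0851 and 0.0515) and SMC at passage P111 (0.0905), and that of MSN for every array but SMC at passage P113 (0.0706 to 0.198). Ezrin (EZR), the member of the family known from microvilli, had -0.29 (limma adjusted p = 0.24). RHOB, a small GTPase, had the most positive value of the list, 0.55 (0.464). Vinculin (VCL), which links cadherin and integrin contacts to actin, had 12.75 to 13.20 in ALI and 12.44 to 12.65 in SMC, without overlap, and a log2 fold change of 0.50 (limma adjusted p = 0.141, 0.0516 with the block). Without ALI at passage P113 it passed the threshold (0.64, limma adjusted p = 0.047), while the mean over its 3 probe sets gave 0.18.

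Of the scaffold, polarity and adhesion partners (17 of 53 measured), 0 were called in either direction, against 2.53% of all genes, a share under which 0 of so few genes is no result about the list. The same holds for the lists of regulators, proteases and Wnt targets. The median of the scaffold list was -0.05. The most negative value belonged to MPDZ, which encodes MUPP1, a PDZ scaffold of the tight junction. It had 7.80, 8.37 and 7.73 in ALI and 9.16, 9.06 and 8.64 in SMC, without overlap. The log2 fold change was -0.99 (SE 0.20), with a limma adjusted p of 0.0548 and of 0.00736 with the passage block. The second MPDZ probe set gave -1.13 with an adjusted p of 0.0179. ESAM, an adhesion protein of the JAM type, had the most positive value, 0.49 (limma adjusted p = 0.137).

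Of the transcriptional regulators (10 of 23 measured), 0 were called, with a median of 0.00. FOXA2, a factor of endoderm, had 9.93, 9.95 and 10.10 in ALI and 9.0, 9.46 and 9.41 in SMC, and the groups did not overlap. The ALI minus SMC difference was 0.70 (SE 0.14), with a limma adjusted p of 0.0514 and of 0.0146 with the block, but the second FOXA2 probe set gave -0.19. The lowest value of the list was that of ELF3, an epithelial factor, at -0.13.

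Of the proteases and endocytic regulators (15 of 21 measured), 0 were called in either fit. The median was -0.11, and the values ran from -0.43 for ADAM10, a sheddase of E-cadherin, to 0.32 for MMP9, a matrix metalloprotease. Of the Wnt and beta-catenin targets (5 of 14 measured), 0 were called, with a median of -0.11 and values from -0.73 for SOX9 to 0.28 for ASCL2, both factors of intestinal crypts. ASCL2 (mean 4.34) was in the lowest 25% of signals, so its probe set may not measure above background. SOX9 passed with the block (limma adjusted p = 0.0389, 0.452 without it), with 6.73, 5.83 and 6.03 in ALI and 7.89, 6.57 and 6.33 in SMC. SOX9 was lower in ALI in each passage, but the groups overlapped. Without SMC at passage P109 its log2 fold change was -0.25.

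**Figure D4:**
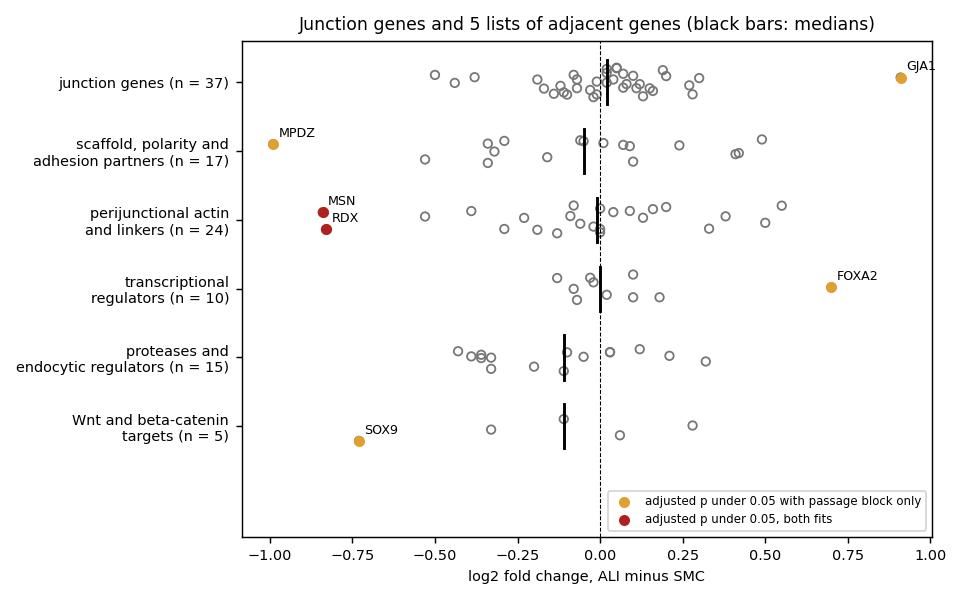
The log2 fold change (ALI minus SMC) of each gene is plotted for the 37 junction genes and the 5 lists, with black bars as medians and points spread vertically for legibility. The medians lie between -0.11 and 0.02. Red points (RDX and MSN) passed the threshold with and without the passage block, and orange points (GJA1, MPDZ, FOXA2 and SOX9) with the block alone.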

How the data were processed

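RNA of 3 ALI and 3 SMC cultures was measured on 6 GeneChip Porcine Genome Arrays. As their methods state, the authors used GCOS, checked quality with arrayQualityMetrics and normalized by GC-RMA. The submitters' processing notes give GCOS version 1.1.1, which differs from the version named in the methods. The deposited table holds log2 values for 24123 probe sets and does not name its normalization. A free-text label names liver and was disregarded.

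The deposited log2 values were not scaled again. After leaving out 124 controls, the other 23999 were fitted by limma 3.58.1 (lmFit, eBayes; R 4.3.3) with culture type as the factor, in place of the methods' t-test, and the threshold was a Benjamini-Hochberg adjusted p of 0.05. The script was tested on simulated data. Of the probe sets, 10069 had 1 symbol, 198 several and 13732 none, and genes were named from the first alone.

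Deviations from the group means correlated between arrays of the same passage at 0.34, 0.14 and 0.451 (passages from the labels), so the passage was taken as pairing the arrays and used as a block in an alternative. Between arrays of different passages they ran from -0.424 to 0.219. The highest, 0.219, was between ALI at passage P111 and SMC at P109, above the 0.14 of ALI and SMC at P111. The pairing was thus not clear for passage P111. Further alternatives were quantile normalization, filters on dim probe sets (mean above 4 or 6), an intensity trend, averaging the probe sets of a gene, and leaving out each array. The contrast of passages and the description of each further probe set were added after seeing the data.

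The junction genes and the lists were chosen with earlier results of these data known. Every junction gene could be named. Values per array were given for genes called in either fit and for defining genes, and for some others, VCL among them, chosen after their values were seen. Of each list, the called genes and the extremes were named. The number of arrays limits the precision.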

Additional observations from a re-analysis of the deposited data

How the results depend on the processing

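The count of called junction genes, 0 of 37, became 1 with the passage block (GJA1) and 2 by the methods' t-test without adjustment. It stayed at 0 under every other setting run, leaving out each array included (0 to 0). The filters on dim probe sets kept 30 and 22 junction genes, and GJA1 was in neither. Over all genes the count of calls was 171, against 406 with the passage block, 48 to 160 without 1 array, 958 by the methods' t-test without adjustment and 0 by that test after it.

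The 2 calls of the actin list became 1 with quantile normalization and 1 with the mean over probe sets, 6 by the methods' t-test and 0 by that test after adjustment, and 0 to 2 without 1 array (without ALI replicate 3 these were VCL, higher, and RDX). The 0 calls of the scaffold list became 1 with the block, 1 with the mean over probe sets, 4 by the methods' t-test and 0 to 1 without 1 array. Those of the regulators became 1 with the block, quantile normalization, the filter at 6, the intensity trend and the methods' t-test. Those of the proteases became 3 by the methods' t-test, and those of the Wnt targets 1 with the block and 1 by the methods' t-test. The block also brought the second MSN probe set past the threshold and changed no other call among the printed values of the junction genes and these lists. The cause of these shifts was not tested.

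The sign turned in 18 junction genes under some setting, and 19 kept it under every setting run. Under quantile normalization the log2 fold change was 0.00 for CDH13, -0.03 for CDH5, 0.01 for CLDN6 and 0.01 for CTNNBIP1. With the mean over probe sets it was -0.05 for CLDN3, -0.11 for CLDND1, -0.02 for CTNNB1 and 0.04 for CTNNBIP1. Without 1 array it ran from -0.07 to 0.03 for CDH11, 0.00 to 0.08 for CDH13, 0.00 to 0.16 for CDH3, -0.19 to 0.17 for CDH5, -0.28 to 0.13 for CDH6, -0.06 to 0.15 for CLDN11, -0.01 to 0.23 for CLDN4, -0.19 to 0.14 for CLDN6, -0.03 to 0.21 for CLDND1, -0.08 to 0.10 for CTNNBIP1, -0.27 to 0.06 for CTNND1, -0.16 to 0.07 for GJB1, -0.03 to 0.10 for GJB5, -0.02 to 0.10 for JUP, -0.05 to 0.12 for MARVELD1 and -0.14 to 0.01 for TJP1. With 3 arrays a group and 11 junction genes in the lowest 25% of signals, small differences and those of dim genes could not be resolved.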
